A study of Homo sapiens with 24 samples.

Results

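The baseline transcriptomes of HCT116 and SW480 were compared, both established human colorectal cancer cell lines, using only the libraries whose *CTNNB1* genes were intact (WT). These were 8 of the 24 libraries of the series, 4 from HCT116 and 4 from SW480, chosen by the genotype and the cell line in their labels. HCT116 was represented by clones 4 and 6 and SW480 by clones 4 and 5, with a library from each of the rounds A and B per clone, named 4A, 4B and so on. The remaining libraries were HT29 cells and clones of the same lines with inactivated *CTNNB1* (KO), the gene of β-CATENIN, and they are used below only as a second measurement of the line difference or as a further line. All clones of the series had gone through CRISPR/Cas9 editing and were grown from single sorted cells, so a line is seen here through 2 such cells. SW480 cells are known to carry inactivating *APC* mutations, whereas HCT116 cells carry an activating *CTNNB1* mutation.

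In the WNT/β-CATENIN pathway, a destruction complex built on APC and AXIN proteins marks β-CATENIN for breakdown. WNT ligands, or mutations in this machinery, leave β-CATENIN free to enter the nucleus and to act with TCF/LEF factors on target genes. Many of these targets code for inhibitors that feed back on the pathway. Colorectal cancer cells also differ in how far they keep an epithelial state, in which E-cadherin, claudins and desmosomes join neighbouring cells, or take on mesenchymal features such as vimentin filaments under factors like ZEB1.

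Reads on genes numbered 27257568 to 29068378 in the HCT116 libraries and 25857212 to 27951928 in the SW480 libraries. The values are read counts divided by a size factor per library, termed normalised read counts below. Testing was limited to the 16470 genes that reached a value of 10 in 4 or more of the 8 libraries. Over these genes, 93.1% of the sum of squares on the log2 scale lay between the lines, 3.70% between clones of a line and 3.15% between rounds of a clone. Pearson's r across genes was 0.981 to 0.991 between libraries of HCT116, 0.987 to 0.993 between those of SW480 and 0.740 to 0.754 between the lines, and genes are not independent replicates in these values. P-values measure the spread between libraries, and clones are fewer than libraries.

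A total of 6719 genes, 40.8% of those tested, were differentially expressed genes (DEGs), with an adjusted p under 0.05 in limma and an absolute log2 difference over 1. Of these, 3842 were higher in SW480, 23.3% of the tested genes, and 2877 were higher in HCT116, 17.5%. SW480 thus held 57.2% of the higher levels. The 95% exact interval, 56.0% to 58.4%, covers counting error only and takes genes as independent, which they are not. Other settings of the processing gave 54.4% to 61.4%. Without the limit on size, 74.1% of genes passed at an adjusted p of 0.05, and in 69.3% the 4 libraries of one line did not overlap those of the other. Differences were large: 3369 genes passed with an absolute log2 difference over 2 (20.5%) and 992 with one over 5 (6.02%). The median absolute log2 difference was 0.78, while the median signed difference over all tested genes was 0.05 (SW480 minus HCT116, as in all log2 differences below) and the median residual SD was 0.21.

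**Figure D1:**
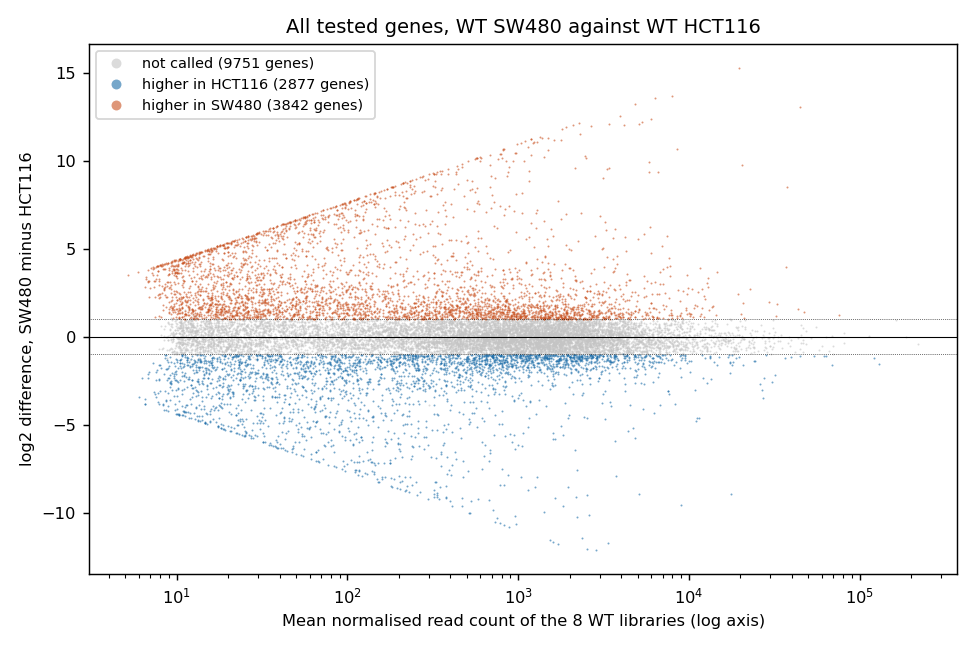
Log2 difference (SW480 minus HCT116, vertical axis) of each of the 16470 tested genes against its mean normalised read count over the 8 WT libraries (horizontal log axis). Orange points are the 3842 DEGs higher in SW480, blue points the 2877 higher in HCT116 and grey points the genes that were not called, and the dotted lines mark a log2 difference of 1 in each direction. The slanted outer edges are genes close to 0 reads in one of the lines.

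Many differences were between presence and near absence. In 239 genes every HCT116 library had 3 reads or fewer while every SW480 library had a value of at least 100, and 105 of them had 0 reads in all 4 HCT116 libraries. The mirror case, SW480 at 3 reads or fewer and HCT116 at 100 or more, held 104 genes, 34 of them with 0 reads throughout SW480. In 44 and 16 genes, respectively, the expressing line stood above 1000 in each library. WT HT29 had a mean of at least 100 for 45 of the 239 genes of SW480 and for 39 of the 104 genes of HCT116.

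The largest excess in SW480 was that of *APCDD1* (ENSG00000154856, chromosome 18, 10454632 to 10489946, GRCh37), a membrane inhibitor of WNT signalling and a WNT target. It had 0 reads in the 4 HCT116 libraries and values of 36104, 37079, 44293 and 39398 in SW480, a mean of 39219 ± 3654 (SD, n = 4), which is at least 13733-fold higher when set against 3 reads per library (adjusted p = 1.2e-14). *KRT5*, a keratin of basal and squamous epithelia (chromosome 12, 52908359 to 52914314), measured 13.8, 11.1, 5.54 and 8.57 in HCT116 and 110483, 105576, 79897 and 63523 in SW480 (log2 difference 13.06 ± 0.24, SE). Per exon length, its SW480 level was 845 RPKM, reads per kilobase of exon scaled by library depth, against 0.0904 in HCT116. *CST1*, a cystatin protease inhibitor with close paralogs among which reads can be split, was at 0 in HCT116 and at 8093 to 18165 in SW480. *WNT5A*, a ligand of β-CATENIN-independent WNT signalling, was at 0 in HCT116 and at 9881, 10064, 8859 and 9744 in SW480. Likewise *GLI3*, a transcription factor of hedgehog signalling, *ZAP70*, a kinase known from T cells, *IGFBP7* and *IGFBP4*, binding proteins of insulin-like growth factors, *TGFBI*, a matrix protein induced by TGFβ, *ANKRD1*, *ASB4* and *QPCT* stayed under 10 in each HCT116 library and reached means between 4565 and 15813 in SW480.

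The genes with the largest excess in HCT116 included members of the MAGE family, which are normally silent outside the germ line. *MAGEB2* measured 5832, 5653, 5626 and 5645 in HCT116 and 0, 1.84, 0 and 0 in SW480 (log2 difference −12.10 ± 0.31, SE). *MAGEA3* was at 3209 to 3707 in HCT116 and at 0 reads in SW480, at least 1125-fold lower there, with the reserve that reads of near-identical MAGEA copies may be split. *GTSF1*, a germ-line factor of the piRNA pathway, had a mean of 5030 ± 412 (SD, n = 4) in HCT116 and 1 read among the 4 SW480 libraries. *VCAN*, the matrix proteoglycan versican, ran from 3932 to 10042 in HCT116 and stood at 5.05, 0, 0 and 0.979 in SW480. *ANXA10*, an annexin of gastric epithelium, *PCDH7*, a protocadherin, *HS3ST1*, a heparan sulfate enzyme, *NLRP2*, *TMED3*, *ZNF518B* and *RTL8A* had HCT116 means between 1466 and 4716 and a highest value of 1.93 in any SW480 library. With *RAB25*, described among the epithelial genes, these were the 12 largest differences in each direction. They were selected for libraries that do not overlap.

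**Figure D2:**
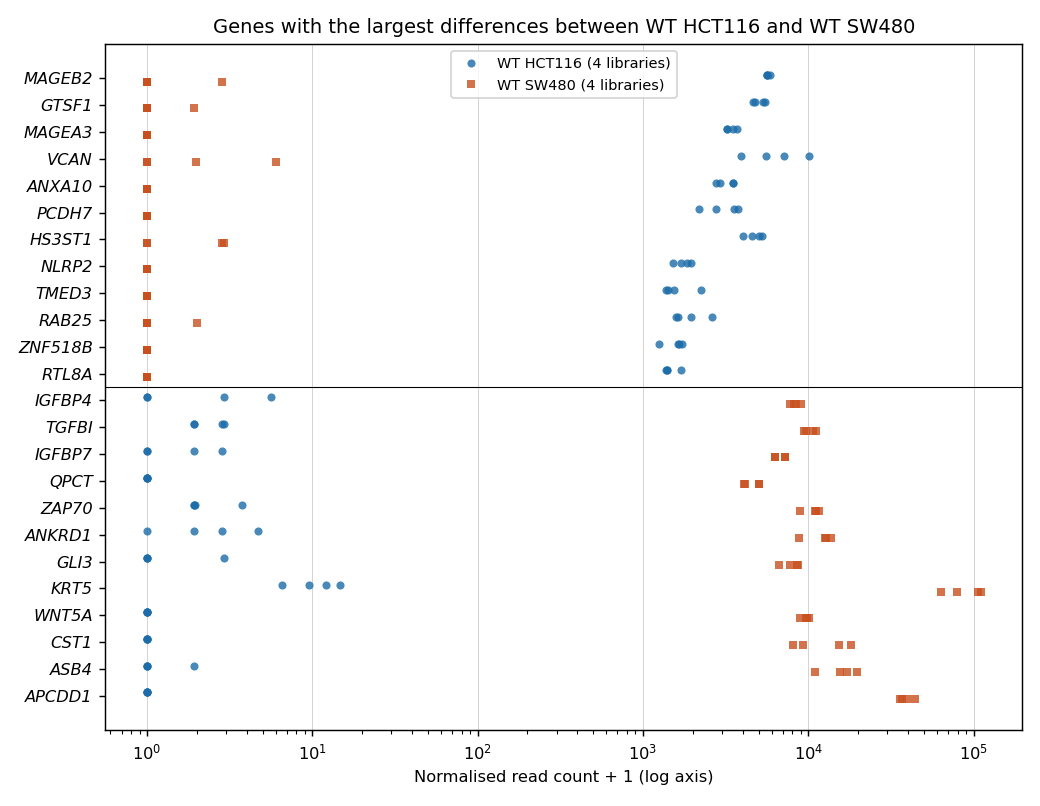
Normalised read count plus 1 (horizontal log axis) in each WT library for the 12 genes with the largest excess in HCT116 (upper rows) and the 12 with the largest excess in SW480 (lower rows). Blue circles are the 4 HCT116 libraries and orange squares the 4 SW480 libraries, and the lower line does not exceed 13.8 for any gene.

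The first group of genes was the WNT pathway itself, since both lines carry a mutation that activates it. *CTNNB1* (chromosome 3, 41236232 to 41301587) was expressed at 12410, 12800, 10512 and 11952 in HCT116 and at 50939, 50570, 43114 and 43245 in SW480. The groups did not overlap, and the log2 difference was 1.98 ± 0.09 (SE, adjusted p = 3.83e-09). Of the 16 genes of the destruction complex and its partners, all tested, 2 were higher in SW480, 3 were lower and 11 were not called, 31.2% called against 40.8% of all genes. The lower ones were *DVL1*, which relays the WNT signal, *BTRC*, a ubiquitin ligase subunit that recognises β-CATENIN, and *TNKS*, an enzyme that destabilises AXIN, with log2 differences of −1.42, −1.26 and −1.03, the last of which missed the size threshold when HCT116 4B or HCT116 6B was left out. *APC* measured 1091 ± 227 in HCT116 and 1392 ± 127 in SW480 (SD, n = 4), a log2 difference of 0.37 below the size threshold, and its libraries overlapped.

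*AXIN2*, a scaffold of the destruction complex and a standard readout of pathway activity, was at 427, 500, 266 and 531 in HCT116 and at 12213, 11629, 11143 and 11049 in SW480 (log2 difference 4.78 ± 0.18, SE). Among 26 tested of 30 WNT targets and feedback inhibitors, 15 were higher in SW480, 4 were lower and 7 were not called. The share called was 73.1%, against 40.8% of all tested genes. The median log2 difference was 1.97, against 0.05 over all tested genes. In addition to *APCDD1* and *AXIN2*, the higher genes comprised the intracellular inhibitor *NKD1* with means of 275 and 14593, the transcription factor *SP5* with 30.0 and 3794, and the secreted inhibitor *NOTUM* with 116 and 1285 in HCT116 and SW480, respectively. These 3 were named after their values were seen. *ASCL2*, a stem cell factor of the crypt, had 0 reads in HCT116 and 297, 354, 654 and 470 in SW480, at least 155-fold higher. *PROX1* had 0 reads in HCT116 and a mean of 273 in SW480, and *TNFRSF19* and *SOX9* were higher by 4.60 and 2.04 on the log2 scale.

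4 members went the other way. *DKK1*, a secreted inhibitor of WNT receptors, was at 6206, 5036, 19633 and 16774 in HCT116 and at 496, 422, 543 and 539 in SW480 (log2 difference −4.34 ± 0.42, SE). Its HCT116 values thus split by clone, with the higher level in clone 6. *TERT*, the telomerase subunit, and *KREMEN1*, a co-receptor of DKK1, were lower in SW480 by log2 differences of −3.80 and −1.16. *MYC* measured 12384 ± 2304 in HCT116 and 6108 ± 426 in SW480 (SD, n = 4), with a log2 difference of −1.003 that just passed the threshold and missed it when HCT116 6A or 6B, or SW480 5A or 5B, was left out.

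A promoter entry in RefSeq (GRCh38.p14) was matched for 7 of the 15 WNT targets that were higher in SW480. The 250 bases before the annotated start were searched for CTTTGAT, a form of the TCF/LEF motif, and for ATCAAAG, the same form on the other strand. Other forms were not searched for. The searched form was present in 1 of the 7, the promoter of *SP5*, and in 2.26% of 35116 promoters of the same length. The 7 are 1 promoter per gene, whereas the 35116 are every entry of that length. The match begins 109 bases before the start, and it is a description of the letters, not evidence of binding. The *SP5* sequence is shown as the only 1 of the 7 that holds the searched form, which is in capitals, 5′ to 3′, plus strand of chr2:170715087-170715336.
SP5: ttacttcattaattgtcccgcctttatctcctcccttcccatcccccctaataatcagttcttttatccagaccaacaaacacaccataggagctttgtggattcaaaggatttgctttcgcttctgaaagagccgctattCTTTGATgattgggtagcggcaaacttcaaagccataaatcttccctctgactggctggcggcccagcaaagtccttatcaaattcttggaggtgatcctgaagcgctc

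The lines differed in which TCF/LEF factors were expressed. *LEF1* (chromosome 4, 108968701 to 109090112) had 0 reads in each HCT116 library and 3885, 3322, 3959 and 3323 in SW480, at least 1268-fold higher, and reads from its antisense neighbour *LEF1-AS1* cannot be told apart in an unstranded library. *TCF7L2* was at 3021, 4056, 4084 and 5157 in HCT116 and at 598, 603, 712 and 618 in SW480 (log2 difference −2.66 ± 0.14, SE). *TCF7* was higher in SW480, 849 ± 77.2 against 3068 ± 258 (SD, n = 4). *TCF7L1* was not called, at 387 ± 57.0 and 280 ± 45.3. Per exon length, *TCF7L2* led the family in HCT116 at 22.98 RPKM, with *TCF7L1* and *TCF7* at 3.32 and 3.20 RPKM and *LEF1* at 0. In SW480 *LEF1* led at 26.3 RPKM, followed by *TCF7* at 11.9, *TCF7L2* at 3.66 and *TCF7L1* at 2.45 RPKM. Of the TLE corepressors, *TLE4* was at 0 reads in HCT116 and at 337 to 458 in SW480, *TLE3* was higher by 2.26 and *TLE2* lower by −2.59 on the log2 scale. The 16 factors and coregulators together had 5 genes higher in SW480, 4 lower and 7 not called, with a median of 0.11. Of them 56.2% were called, against 40.8% of all tested genes.

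WNT ligands were called in both directions. Among 28 tested ligand and receptor genes, 11 were higher in SW480, 6 were lower and 11 were not called, with a median of 0.22. Called genes made up 60.7%, against 40.8% of all tested genes. SW480 had *WNT5A*, *WNT6* at 1715 to 2553 against 2.78 to 12.01 in HCT116, and *WNT5B* at a mean of 173 against 9.09. HCT116 had *WNT16* at 3396, 3401, 3530 and 3433 against 70.8, 68.0, 161 and 136 in SW480, and *WNT7B*, *WNT10B* and *WNT3A* at means of 232, 296 and 144 against 1.00, 39.4 and 1.19. Of the receptors, *FZD9* was higher in SW480, with means of 16.5 and 219.

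Libraries that lack intact *CTNNB1* offered a measurement of the same line contrast in other clones. Among the 26 WNT targets, the difference between the lines differed between WT and KO libraries for 14, by an interaction term in limma over 16 libraries, whereas 13.9% of 17796 genes passed that test. In 11 of the 14 the gap was smaller, or turned, without *CTNNB1*. This direction was also the usual one elsewhere: among all 16470 tested genes, it held for 1597 of the 2187 that passed. The median log2 difference of the 24 targets tested in KO libraries was 0.48. *SP5* went from a log2 difference of 6.96 in WT to −0.24 in KO, *NKD1* from 5.73 to 0.54, and *TNFRSF19* from 4.60 to −0.24. *NOTUM* turned from 3.51 to −4.26. *AXIN2* stood at 4.78 in WT and 5.30 in KO (adjusted p of the interaction = 0.296), at lower levels in both lines, with KO means of 10.5 in HCT116 and 440 in SW480. *DKK1* likewise stood at −4.34 and −4.36. *APCDD1* and *LEF1* remained higher in KO SW480, by 9.23 and 7.45, each less than in WT.

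**Figure D3:**
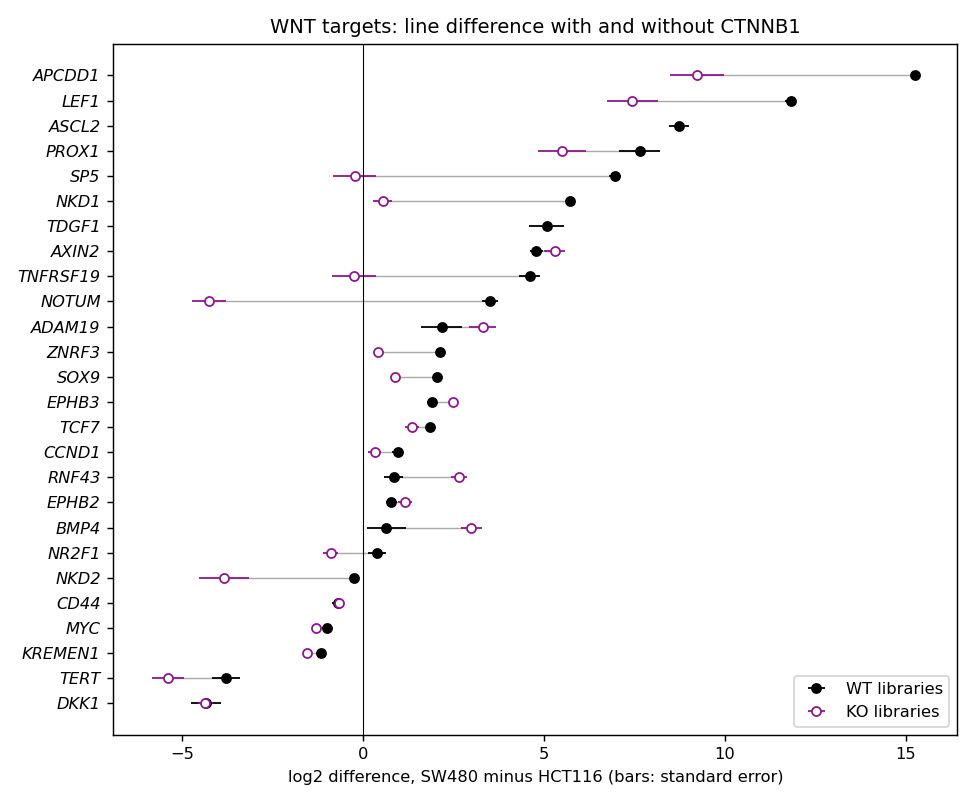
Log2 difference (SW480 minus HCT116, horizontal axis, with its standard error as a bar) of each tested WNT target or feedback inhibitor in WT libraries (filled circles) and in KO libraries (open circles, absent where the gene was not tested there). *SP5*, *NKD1* and *TNFRSF19* lie near 0 in KO libraries, *NOTUM* crosses to −4.26, and *AXIN2* and *DKK1* barely move.

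Genes of epithelial adhesion and polarity were lower in SW480 and mesenchymal genes higher. Of 34 tested epithelial genes, 22 were lower in SW480, 3 were higher and 9 were not called, with a median log2 difference of −2.37. The share called was 73.5%, against 40.8% of all tested genes. *CDH1*, which codes for E-cadherin (chromosome 16, 68771195 to 68869440), measured 1616, 1655, 1472 and 1181 in HCT116 and 20.2, 34.0, 85.9 and 82.2 in SW480 (log2 difference −4.93 ± 0.39, SE). *RAB25*, an epithelial GTPase of apical trafficking, was at 2618, 1939, 1619 and 1575 against 1.01, 0, 0 and 0. *DSC2*, a desmosomal cadherin, had means of 1157 and 0.983, *ESRP1*, an epithelial splicing regulator, 3924 and 14.6, and *GRHL2*, a transcription factor of epithelial identity, 704 and 3.93. *CRB3*, an apical polarity protein named after its values were seen, had means of 366 and 8.23. Against this trend the tight junction gene *CLDN1* and the desmosomal *PKP2* were among the genes higher in SW480, *CLDN1* at 182, 151, 945 and 894 against at most 1.86 in HCT116.

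Of 24 tested mesenchymal genes, 19 were higher in SW480, 3 were lower and 2 were not called, with a median of 3.11. The share called was 91.7%, against 40.8% of all tested genes. A further 9 of the 33 listed genes were too low to be tested, with a highest value of 36.0. Among these were *CDH2*, *ZEB2*, *TWIST1* and *TWIST2*. *VIM*, the gene of vimentin (chromosome 10, 17270240 to 17279592), was at 17.4, 9.28, 32.3 and 15.2 in HCT116 and at 12655, 12256, 10674 and 10921 in SW480 (log2 difference 9.34 ± 0.28, SE). *ZEB1*, a repressor of epithelial genes, was at 38.5, 86.3, 74.8 and 118 in HCT116 and at 1125, 1255, 1058 and 1108 in SW480. *CDH11*, a mesenchymal cadherin, had 0 reads in HCT116 and 3403 to 5060 in SW480, and *SPARC*, a matrix protein, had means of 3.25 and 1704. The 3 lower genes were *CAV1* and *CAV2*, which form caveolae, and *SNAI1*, a repressor related in function to ZEB1, with log2 differences of −2.35, −2.65 and −1.43. *VIM*, *ZEB1* and *TGFB2* have antisense genes on the opposite strand that these libraries cannot separate.

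The part of other cell types in these differences was not tested. The summed value of the 16 matched markers of fibroblasts, blood, vessel, muscle and liver was 388 to 507 in HCT116 libraries and 519.7 to 979 in SW480 libraries, 6 of the 7 tested were higher in SW480, and *PTPRC*, the general leukocyte marker, was at 0 reads in all 8 libraries, while *CD68*, *CDH5*, *DCN*, *LUM* and *ALB* had 3 reads or fewer in each. Their highest members were *COL1A1*, lower in SW480 at 346 and 172, a call that is lost without HCT116 6B or SW480 5B, *ACTA2* at 35.9 and 240 and *PDGFRB* at 4.88 and 140.

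The E-box that ZEB1 is known to bind was searched for as CACCTG or, on the other strand, CAGGTG in the 250 bases before the start. A RefSeq promoter (GRCh38.p14) was matched for 12 of the 22 epithelial genes that were lower in SW480. It held the motif in 6 of the 12, whereas 17.5% of the 35116 promoters did. No test was made of this difference, the 12 are those the reference table holds, and a match is no evidence of binding. 3 promoters of genes close to absent in SW480 are shown with the E-box letters in capitals, 5′ to 3′, for *RAB25* (plus strand of chr1:156060910-156061159), *DSC2* (minus strand of chr18:31102422-31102671) and *CRB3* (plus strand of chr19:6464021-6464270), the last of which has 5 matches.
RAB25: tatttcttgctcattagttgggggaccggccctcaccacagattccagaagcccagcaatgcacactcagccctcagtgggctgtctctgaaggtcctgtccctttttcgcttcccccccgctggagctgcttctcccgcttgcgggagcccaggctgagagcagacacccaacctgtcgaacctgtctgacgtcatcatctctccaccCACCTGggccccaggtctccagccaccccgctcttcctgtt
DSC2: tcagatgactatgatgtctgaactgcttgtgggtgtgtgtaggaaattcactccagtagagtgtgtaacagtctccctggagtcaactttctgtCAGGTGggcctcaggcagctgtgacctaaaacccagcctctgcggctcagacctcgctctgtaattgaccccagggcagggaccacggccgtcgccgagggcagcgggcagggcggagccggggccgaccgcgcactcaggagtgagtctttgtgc
CRB3: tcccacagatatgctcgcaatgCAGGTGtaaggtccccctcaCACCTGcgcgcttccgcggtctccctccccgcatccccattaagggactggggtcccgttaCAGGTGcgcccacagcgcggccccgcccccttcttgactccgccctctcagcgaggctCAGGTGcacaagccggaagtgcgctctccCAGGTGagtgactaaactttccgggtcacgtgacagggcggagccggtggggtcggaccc

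Markers of colorectal epithelium were present in part. *EPCAM*, an epithelial adhesion molecule, measured 13867, 12103, 12857 and 14910 in HCT116 and 1407, 1117, 1944 and 2110 in SW480. The simple epithelial keratins were abundant in both lines, with *KRT8* not called at means of 74857 and 87669, *KRT18* higher in SW480 at 25737 and 68862, and *KRT19* lower at 27898 and 6794, and *KRT8* and *KRT18* have overlapping exons in the annotation. *KRT20*, a marker of differentiated colonocytes, was at 77.8 in HCT116 and at 2.91 in SW480 on average. The differentiation markers *CDX1*, *CEACAM5* and *CEACAM6* had 3 reads or fewer in each of the 8 libraries, and *CDH17*, *GPA33*, *LGALS4* and *VIL1* were too low to be tested. Accordingly 19 of 27 absorptive and 20 of 29 secretory lineage genes were not tested in either line.

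Of 18 tested gut transcription factors, 7 were higher in SW480, 8 were lower and 3 were not called. The share called was 83.3%, against 40.8% of all tested genes. *PPARG*, a nuclear receptor of lipid metabolism and colonocyte differentiation, was at 2235, 2051, 1376 and 1289 in HCT116 and at 8.09, 4.59, 6.76 and 6.85 in SW480 (log2 difference −7.82 ± 0.22, SE). In KO libraries the same gene stood at 0.10, and the interaction was −7.92 ± 0.33 (SE, adjusted p = 4.61e-11), with KO means of 1330.4 in HCT116 and 1385 in SW480. *HNF4G* had a mean of 107 in HCT116 and 0 reads in SW480. The forkhead factors diverged, with *FOXA3* lower in SW480 (193 and 9.67) and *FOXA2* higher (3.45 and 430). *SOX2*, known from foregut and stem cells, was also higher, at 2.34 and 200. *CDX2*, a regulator of intestinal identity, had a log2 difference of 0.83 below the threshold, although the libraries did not overlap. Among stem cell markers, *PROM1* was at 768 to 1101 in HCT116 and at most 1.01 in SW480, *MSI1* was lower by −4.40 on the log2 scale, *LRIG1* was higher by 3.80, and *LGR5* was too low to be tested.

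In the cell cycle group, 9 of 23 genes were higher in SW480, 1 was lower and 13 were not called, so that 43.5% were called against 40.8% of all tested genes. The higher ones included *CCND2*, *CDKN2C* and *E2F1*, whereas *CCNE1*, the cyclin of entry into S phase, was lower at 2741 ± 270 and 657 ± 148 (SD, n = 4). *CDKN1A*, the p21 inhibitor of cyclin-dependent kinases, was at 9316, 9218, 3230 and 2997 in HCT116 and at 2870 to 3523 in SW480, so that only HCT116 clone 4 stood apart, and it was not called (adjusted p = 0.1002) except when HCT116 6B or the whole of clone 6 was left out. *CDKN2A*, an inhibitor of the same kinases, was at 1869 ± 280 and 1985 ± 137 (SD, n = 4) and was not called.

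In the TGFβ and BMP pathway *SMAD4*, the shared mediator of both branches (chromosome 18, 48554898 to 48611415), was at 1360, 1465, 1342 and 1497 in HCT116 and at 33.4, 28.5, 21.2 and 33.3 in SW480 (log2 difference −5.58 ± 0.15, SE). *ID1* and *ID3*, direct targets of BMP signals, were at means of 7225 and 1899 in HCT116 and of 116 and 21.6 in SW480. *SMAD2* was lower as well, with values of 2414 to 3058 against 1247 to 1262. Of 28 tested genes, 64.3% were called, against 40.8% of all tested genes, with 4 lower in SW480. 14 of the 28 were nonetheless higher in SW480, and the median was 0.91. They included the ligand *BMP7* at means of 288 and 8246, the decoy receptor *BAMBI* at 420 and 7143, and *TGFBR2*, which was higher by 1.07 on the log2 scale and missed the size threshold without HCT116 4A or SW480 5B.

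Among EGF receptors, their ligands and a feedback inhibitor, 6 of 11 tested genes were lower in SW480, 2 were higher and 3 were not called. Called genes made up 72.7%, against 40.8% of all tested genes. *EREG*, epiregulin (chromosome 4, 75230862 to 75254466), was at 14902, 17733, 19113 and 20199 in HCT116 and at 16.2, 7.35, 57.9 and 41.1 in SW480 (log2 difference −9.52 ± 0.54, SE). *AREG*, amphiregulin, was at 8454 to 11573 against 10.1 to 29.9, and *BTC* had means of 138 and 2.42. *ERRFI1*, an inhibitor induced by the receptor, measured 22020 ± 2518 and 894 ± 161 (SD, n = 4). *EGFR* itself was higher in SW480, at 1408 ± 229 and 3628 ± 473. The ligand *EGF* was the other higher gene, at means of 9.48 and 26.6, and the ligands *TGFA* and *HBEGF* were not called. In contrast, feedback genes of MAPK signalling were split, with 6 of 20 higher, 4 lower and 10 not called, and a median of 0.20. Of all tested genes, 40.8% were called. The higher ones included *DUSP6*, at 1277 to 1372 in HCT116 and at 13271 to 15019 in SW480, and *FOS*, by 4.24 on the log2 scale. The lower ones included *ETV1*, whose call was lost without HCT116 clone 6. Its means were 819 and 1998 in HCT116 clones 4 and 6, and 148 and 600 in SW480 clones 4 and 5.

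Immune genes did not move as a block. For MHC class I presentation 7 of 17 genes were higher in SW480, 1 was lower and 9 were not called, 47.1% called against 40.8% of all tested genes, with *PSMB8*, an immunoproteasome subunit, at 0.952 to 5.54 in HCT116 and at 678 to 769 in SW480, with the limit that its exons overlap those of *PSMB9*. *B2M*, the light chain of MHC class I, was not called, at 5688 ± 585 and 7376 ± 161 (SD, n = 4), although the libraries did not overlap. Of 26 tested interferon-stimulated genes, 12 were higher, 7 lower and 7 not called, 73.1% called against the same 40.8%. *IFITM1*, *MX2*, *OAS2* and *BST2* were higher by 8.31, 7.74, 7.55 and 6.57 on the log2 scale, whereas *SAMD9*, *OASL*, *USP18* and *IFIT1* were lower, by −3.82, −3.43, −3.05 and −3.05.

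HOX genes, which set positional identity along the body axis, were higher in SW480 for 21 of 33 tested genes and lower for 1. Their median was 1.89, 11 were not called, and the share called was 66.7%. For this and the next groups, the share over all tested genes was 40.8%. *HOXD10* had 0 reads in HCT116 and 153 to 215 in SW480, *HOXD9* had means of 0.696 and 184, *HOXB2* of 11.9 and 663, and *HOXC10* of 33.4 and 615. The lower gene was *HOXB13*, at −1.001, which missed the size threshold when HCT116 4A, SW480 4A or SW480 5B was left out. Between the HCT116 clones, 4 of 26 tested HOX genes were higher in clone 6 and 0 lower. Of 22 tested xenobiotic and redox enzymes, 6 were higher, 8 lower and 8 not called (63.6% called). The efflux pump gene *ABCC2* was at 3434 to 8147 in HCT116 and at 0.919 to 7.72 in SW480, and the glutathione transferase *MGST1* and the aldose reductase *AKR1B1* were lower in SW480 by −7.53 and −6.57, while *ABCB1*, the P-glycoprotein pump, was higher by 5.73. The HCT116 clones differed in *ABCB1*, at means of 4.15 in clone 4 and 58.8 in clone 6, and its log2 difference was 3.97 without HCT116 clone 4 and 7.49 without clone 6. The 14 tested Eph and ephrin genes had 5 higher, 4 lower and 5 not called (64.3% called). Of the ligands, *EFNB3* and *EFNB1* were higher and *EFNB2* lower (6.31, 3.54 and −5.10). The 20 tested integrin and laminin genes had 9 higher, 3 lower and 8 not called (60.0% called), with *ITGA1* at means of 42.5 and 3064. Of the cancer-testis antigens 22 of 28 were not tested, and *MAGEC2* was the only called one that was higher in SW480, at 0 reads in HCT116 and 3593 to 3993 in SW480. All 6 tested members were called, with a median of −6.67, or −5.89 with the 4 genes at 0 reads in one line set to 3 reads. A gene at 0 reads in one line passes the filter only through the other line, so this median does not describe the group. Of the 21 matched members that were not tested, 17 had 3 reads or fewer in all 8 libraries. Cytosolic ribosomal protein genes had the lowest share of calls of the 26 groups, with 8 of 56 called, all lower in SW480, and a median of −0.41.

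Differences had a regional component. The chromosome with the lowest median log2 difference was chromosome 18, at −0.65 over 236 tested genes, and with 58.9% it also had the highest share of DEGs, 43 higher and 96 lower in SW480. It was followed by chromosome 8 at −0.57. The highest medians were those of chromosomes 20 (0.62), 7 (0.61), X (0.55) and 21 (0.52), on which 79.5% to 83.3% of the DEGs were higher in SW480. This order did not hold throughout, as the KO medians were 0.39 for chromosome 20, 0.61 for 7, 0.69 for X and 0.49 for 21, and that of chromosome 3 was 0.42. Chromosomes 18 and 8 were the lowest in KO libraries too, at −0.67 and −0.54. In windows of 50 neighbouring tested genes, the lowest median was −1.30 on chromosome 18 between 33688494 and 55158530 (GRCh37), where 33 genes were called lower and 6 higher in SW480, and this window includes *SMAD4*. The highest was 1.25 on chromosome 7 between 99949799 and 102715286, with 28 genes higher and 5 lower. Over the 4 pairings of an HCT116 with an SW480 clone these windows ran from −1.40 to −1.15 and from 1.06 to 1.40, and in KO clones they stood at −1.12 and 1.03. Gene copy number was not measured.

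**Figure D4:**
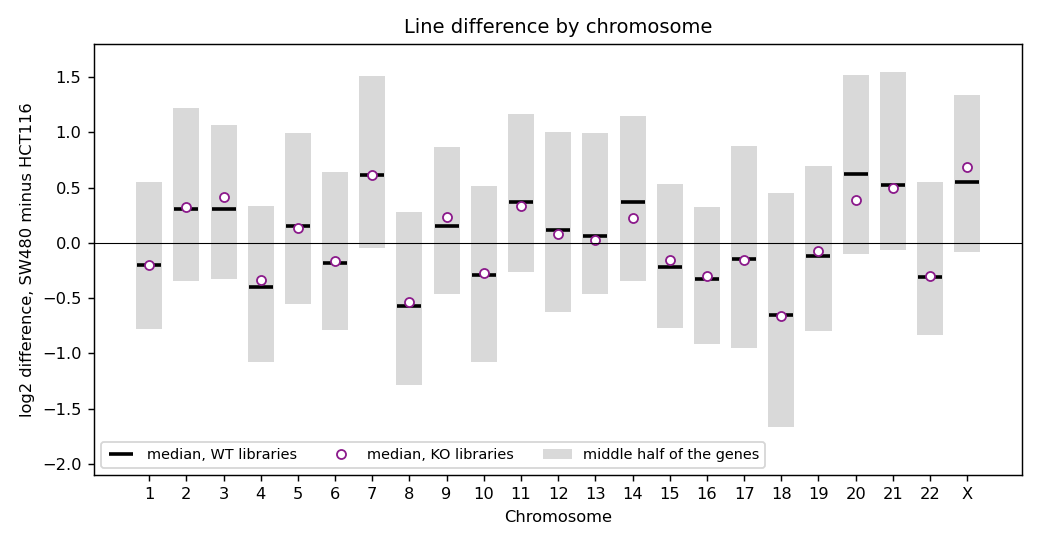
Log2 difference (SW480 minus HCT116, vertical axis) by chromosome. Black bars are medians over the tested genes in WT libraries, grey boxes span the lower to the upper quartile, and open circles are medians in KO libraries. Chromosomes 18 and 8 lie lowest, at −0.65 and −0.57, and chromosomes 20 and 7 highest, at 0.62 and 0.61.

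Clones of a line were far more alike than the lines. Between the WT clones of HCT116 309 genes passed the same thresholds, 1.99% of 15535 tested, and between those of SW480 336, 2.06% of 16275, in tests that set 2 rounds of one clone against 2 of the other. Of these genes, 277 and 263, respectively, were also tested between the lines. DEGs of the line comparison made up 199 and 214 of them, where 40.8% of all tested genes were DEGs. The genes named here were chosen after their values were seen. In HCT116, *CDKN1A* and *GDF15*, a stress-induced cytokine, were lower in clone 6, with means of 9267 and 1857 in clone 4 and of 3114 and 461 in clone 6. *HOXB8* was higher in clone 6, at 101 and 1330. In SW480, 5 of 28 epithelial genes were higher in clone 5 and none lower. Most of the 336 genes that passed in SW480 had that direction, with 244 higher and 92 lower in clone 5. *CDH1* had means of 27.1 in clone 4 and 84.1 in clone 5, *CLDN1* 166 and 919, *ST14* 237 and 752, *ESRP1* 3.81 and 25.3 and *CLDN7* 22.0 and 63.7. Mesenchymal genes were split, with 2 of 26 higher in clone 5 and 2 lower. The higher ones were the repressor *SNAI2* at 30.3 and 75.4 and *TWIST2* at 3.49 and 14.6, and the lower ones were *SPARC* at 2301 and 1108 and the protease gene *MMP2* at 245 and 82.9 in clones 4 and 5. The fibroblast marker *PDGFRB* was lower in clone 5, at 213 and 66.6. For *CDH1* and *ESRP1*, both SW480 clones stayed below all HCT116 libraries.

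The line difference was measured again in the 8 KO libraries, which come from other clones. Here 41.6% of 16491 genes were called. Of the 6719 DEGs, 6195 were tested in KO libraries, 5880 (94.9%) had the same sign, 4700 (75.9%) were called with that sign, and 89 were called with the opposite sign. Of the 992 DEGs with an absolute log2 difference over 5, 874 were tested in KO libraries, and 854 of these were called with the same sign. Presence against near absence recurred less often. By the same limits it held in KO libraries for 79 of the 239 genes present in SW480 and 50 of the 104 present in HCT116. One KO library of HCT116, 47A, had reads on 35449 genes, whereas each other library of the series had reads on at most 24944, and without it the share called was 75.1%. The interaction term passed for 1564 of the 6719 DEGs (23.3%), with a smaller or turned difference in KO libraries for 1224 and a larger one for 340. Among mesenchymal genes 20 of 24 were higher in KO SW480 and 4 lower, and among epithelial genes 3 of 34 were higher and 25 lower, with medians of 2.86 and −3.32. *SMAD4* was called again, at −5.38. *EHF*, an epithelial ETS factor named after its values were seen, was not called in WT libraries (log2 difference −0.21) and was higher in KO SW480 by 6.71.

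WT HT29 cells gave the position of another line. For 3554 of the 6719 DEGs (52.9%) the HT29 level was nearer to HCT116 on the log2 scale, and for 3165 (47.1%) it was nearer to SW480. For genes higher in SW480, HT29 was nearer to HCT116 in 61.5%, and for genes higher in HCT116 it was nearer to SW480 in 58.6%. Groups differed widely in these counts. For 22 of 25 epithelial DEGs and 13 of 15 gut transcription factors HT29 was nearer to HCT116, with HT29 means of 8179 for *CDH1* and 4738 for *PPARG*. For mesenchymal DEGs the count was 15 of 22, with *VIM* at 2.34 in HT29. WNT targets were divided, 8 nearer to HCT116 and 11 nearer to SW480, and HT29 had *AXIN2* at 675 and *LEF1* at 5.92 but *TCF7* at 2879 and *SOX9* at 4165.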

How the data were processed

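RNA of HCT116 and SW480 clones had been sequenced from TruSeq libraries. Per the labels and methods, the authors aligned reads with STAR 2.7.5b to GRCh37, counted them per gene with featureCounts 2.0.1 and normalised them with DESeq2. The values deposited by the authors are signal, that is counts divided by a size factor per library. Reads were recovered from the step between low values, and all genes came out whole (tolerance 0.01). The steps matched DESeq2 size factors over 24 libraries. Deposited tables of the authors' own KO against WT comparisons hold a mean signal, log2 fold changes, a p-value and an adjusted p-value, and were not used. Columns without a sample label numbered 0.

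The test was limma 3.58.1 (trend, robust) on log2 of the value plus 1, which understates changes of low genes, with Benjamini-Hochberg adjustment over all 16470 tested genes. Alternatives used edgeR 4.0.16 and DESeq2 1.42.0 in R 4.3.3. Tables and plots were made in Python 3.11.15 with numpy 2.4.6, pandas 2.3.3 and matplotlib 3.10.9. Coordinates and exon lengths came from GENCODE 44 lifted to GRCh37, which gave a symbol for 95.8% of 58051 identifiers. RPKM values use recovered reads and the length of all exons. The genes, lists and rules were chosen with earlier results of these data known. Named genes are the 12 DEGs with the largest difference in each direction (mean of at least 500 in the higher line, libraries not overlapping), up to 4 called members per list and direction with a mean of at least 100, and genes picked by role. Of 636 list symbols 4 had no match. Bounds against a line at 0 reads use 3 reads per library. The rounds were checked as pairs through the correlation of their A minus B differences across genes for each pair of clones: r ran from −0.0224 to 0.129 and exceeded 0.1 in 2 of 6 pairs, so rounds were not treated as pairs. On simulated counts for WT SW480 against WT HCT116 (14923 genes tested) limma recovered 95.5% of 200 changed genes with 0 false calls. These counts were drawn from HCT116 means in all libraries, with no clone effect and far fewer changed genes than called here. The result therefore does not measure the error rate of the DEGs reported here. The median log2 difference over 5 bins of exon length ran from 0.00 to 0.10. Some genes and groups are not reported here.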

Additional observations from a re-analysis of the deposited data

Results flagged for a closer look

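In 11 of 307 groups of 4 WT libraries, over 182 named genes, 1 library stood apart from the other 3, with a gap above 0.829 of the group's range. Chance gives such a gap in about 1 of 20 groups. HCT116 4A was the highest library for *MAGEB2* (5832, others 5626 to 5653), *RTL8A* (1693, others 1379 to 1405), *EFNB1* (722, others 662 to 670), *RPL30* (7838, others 6568 to 6776) and *KRT8* (86062, others 70711 to 71769). HCT116 4B was highest for *SAMD9* (739, others 341 to 377) and HCT116 6A for *DUSP6* (1372, others 1277 to 1283). SW480 5A was highest for *TCF7L2* (712, others 598 to 618) and *FOXA2* (500.003, others 402 to 409). SW480 4A was lowest for *TLE4* (337, others 440 to 458) and SW480 4B for *GDF15* (95.6, others 128 to 131).

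For 17 of the 182 genes the log2 difference between the lines differed by more than 4 between WT and KO libraries, with an adjusted p under 0.05 for the interaction in limma. WT minus KO, the difference was 8.28 for *ASCL2*, 7.77 for *NOTUM*, 7.19 for *SP5*, 6.02 for *APCDD1*, 5.19 for *NKD1*, 4.84 for *TNFRSF19*, 4.71 for *WNT6*, 4.44 for *ITGA1* and 4.37 for *LEF1*. It was −7.92 for *PPARG*, −6.93 for *EHF*, −5.66 for *BTC*, −5.57 for *COL17A1*, −5.29 for *PCDH7*, −4.99 for *TGFB2*, −4.91 for *EREG* and −4.47 for *OASL*.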

How the results depend on the processing

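The count of 6719 DEGs moved by over 1.5 times under 2 settings. It was 4161 with a filter of 100 and 3369 with a log2 threshold of 2, both by construction stricter, and 9948 with no filter on low values, 6756 in edgeR with TMM and 6742 in DESeq2. It ran from 6681 to 6758 when 1 library was left out. The share of DEGs higher in SW480 (57.2%) was 55.8% in edgeR with TMM, 55.6% with the reads of a clone summed, 59.3% without a filter, 54.4% with a filter of 100 and 61.4% with a threshold of 2, and 57.0% to 57.4% when 1 library was left out. The share of DEGs called with the same sign in KO libraries ran from 75.01% to 75.98%. With the round as a replicate block there were 6713 DEGs, 57.2% of them higher in SW480, and 75.9% were called in KO libraries, so the block moved none of these counts by over 1.5 times. Of 4537 values of 182 named genes under other settings, 69 lost the call, 3 gained one and 0 turned. Of 650 group values, 16 moved, in 13 of 26 groups. Of 115 chromosome medians under other clone pairings or TMM scaling, 49 moved by more than the SD over 4 clone pairings and 0 turned, and that of chromosome 18 (−0.65) ran from −0.57 to −0.49 over the pairings. With 2 clones per line, differences between clones limit what the lines themselves can be said to differ in, and genes near 10 reads have folds set by the pseudocount.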
